A study of Drosophila melanogaster with 3 samples.

Results

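RNA polymerase II is the enzyme that transcribes protein-coding genes, and it starts at promoters together with general transcription factors, among them TFIID, which consists of the TATA-binding protein and TBP-associated factors (TAFs). Mediator is a large complex that carries signals from DNA-bound regulators to the polymerase. Genes for these proteins are used in nearly every cell, and many fly genes of this kind lie head to head with a neighbour that is transcribed in the opposite direction. Tinman, the protein profiled here, is an NK-2 class homeodomain factor that is required for formation of the heart and dorsal mesoderm.

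The genes described here are all protein-coding genes whose symbol starts with Polr2, TfII, Taf and a digit, or MED and a digit in the fly Ensembl annotation. The rule uses the symbol alone and no measured value, although the set was picked for description with earlier results of these data known. The genes number 62 of 13945 protein-coding genes: 13 polymerase II genes, 9 TfII genes, 15 Taf genes and 25 MED genes. Binding was measured by ChIP-seq in 1 group of 3 biological replicates of whole Drosophila melanogaster embryos aged 0 to 16 h, of both sexes pooled, from a transgenic line that carries tin fused at its C-terminus to GFP. The precipitation used an antibody against GFP, although another label field names the antibody as tin. All replicates come from this line, and embryos without the tag were not analysed here, so there is no second condition to compare. In whole embryos, a peak does not show in which cells the protein was bound.

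The authors deposited scored lists of 30000, 30000 and 24711 entries for replicates 1, 2 and 3, a pooled list of 30000 entries, and 5508 peaks kept after an analysis of reproducibility between replicates by irreproducible discovery rate (IDR peaks). The pooled list is labelled as peaks and background used as input to the IDR analysis. A pooled entry that is not an IDR peak may therefore be background and is not evidence of binding. All scores and ranks are those of the authors' peak caller, and rank 1 is the highest score of a list. Read counts are not part of these lists, and the depth of each replicate is therefore unknown. The IDR peaks were the 5508 highest-scoring pooled entries, and their scores ran from 147 to 4944. A gene was given the IDR peaks whose summit lay within 500 bp of one of its transcription start sites (TSSs), called promoter peaks, and otherwise those in its body or within 2 kb.

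Sequences at 8 summits show what lies under these peaks. The first 4 are at the highest-scoring promoter peak of the MED, Polr2, TfII and Taf genes, the next 2 hold the core of the DRE, a promoter element bound by DREF, and the last 2 hold a Tinman site. Each runs from 50 bases before to 50 bases after the summit in dm6 and is written 5′ to 3′ on the strand of the gene, from the RefSeq Release 6 genome. Capitals mark matches, on either strand, to the DRE core ATCGATA, the Tinman site TCAAGTG or TTAAGTG, the TATA box TATAAA or the GAGA repeat GAGAG.

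MED27, chr3R:5654923-5655023, plus strand: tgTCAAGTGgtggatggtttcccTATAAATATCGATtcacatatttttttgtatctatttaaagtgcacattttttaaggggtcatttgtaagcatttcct

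Polr2B, chr3R:14125683-14125783, plus strand: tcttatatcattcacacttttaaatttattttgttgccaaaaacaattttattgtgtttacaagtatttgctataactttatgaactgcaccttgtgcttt

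TfIIA-S, chr3R:23891079-23891179, minus strand: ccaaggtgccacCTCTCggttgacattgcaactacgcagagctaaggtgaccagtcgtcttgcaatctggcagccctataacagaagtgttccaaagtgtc

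Taf2, chr3L:9888739-9888839, minus strand: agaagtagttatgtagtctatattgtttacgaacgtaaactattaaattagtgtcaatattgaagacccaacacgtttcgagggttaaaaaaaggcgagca

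MED17, chr3R:18188963-18189063, plus strand: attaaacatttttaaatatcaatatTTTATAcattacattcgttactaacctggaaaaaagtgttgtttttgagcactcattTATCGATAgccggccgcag

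Polr2C, chr2L:13833251-13833351, plus strand: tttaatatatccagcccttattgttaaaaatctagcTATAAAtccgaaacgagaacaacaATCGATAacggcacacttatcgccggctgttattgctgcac

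Taf4, chr3L:16113638-16113738, plus strand: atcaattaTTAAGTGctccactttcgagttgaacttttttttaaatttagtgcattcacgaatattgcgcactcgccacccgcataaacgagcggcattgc

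TfIIA-L, chr3R:27253374-27253474, plus strand: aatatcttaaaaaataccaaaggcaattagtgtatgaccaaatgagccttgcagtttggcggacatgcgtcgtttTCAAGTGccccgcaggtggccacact

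In the MED27 window the TATA match and the DRE core adjoin, and the Tinman site lies near the upstream end. The DRE core is nearly its own reverse complement, and in the MED17 window matches on both strands overlap. The Polr2B and Taf2 windows hold none of these motifs. The Taf4 and TfIIA-L windows were added after their Tinman sites had been seen, and that of TfIIA-L is at its second promoter peak, of rank 3083. A TSS of the gene is base 87 of the Polr2C window and base 57 of the TfIIA-L window, and the other 6 windows hold none of their gene's own.

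Promoter peaks were found at 27 of the 62 genes (43.5%, Wilson 95% interval 31.9 to 55.9), against 24.3% of all protein-coding genes. By role they were at 7 of 13 Polr2 genes (53.8%), 3 of 9 TfII genes (33.3%), 6 of 15 Taf genes (40.0%) and 11 of 25 MED genes (44.0%). A further 8 genes had an IDR peak only in the body or within 2 kb, which makes 35 of 62 (56.5%) with a peak by either rule, against 40.6% of all genes. The remaining 27 had none. Intervals cover counting error only, and no test of the list was made, so these shares describe it and do not set it apart.

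**Figure D1:**
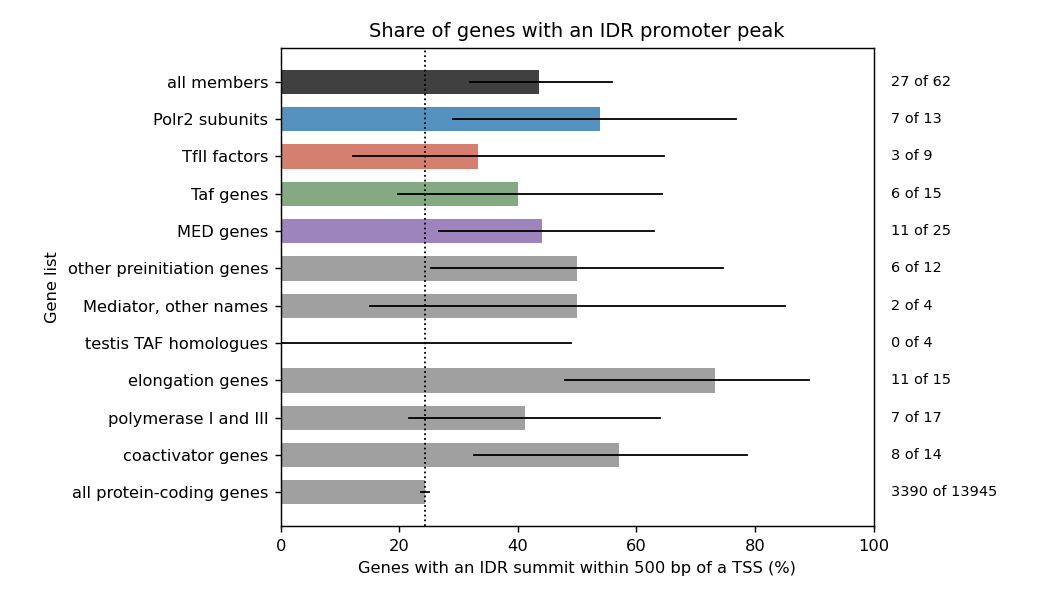
Share of genes with an IDR summit within 500 bp of a TSS, in percent, for the 62 members, their 4 roles, 6 other lists and all protein-coding genes (bars, with Wilson 95% intervals as lines and counts at the right; the dotted line is the share of all genes, 24.3%). The members stand at 43.5% and the 4 roles between 33.3% and 53.8%, with wide intervals that overlap one another.

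The share was similar in each replicate taken alone. Among as many top entries as the IDR list holds, promoter entries were found at 27, 23 and 26 of the 62 genes in replicates 1, 2 and 3 (43.5%, 37.1% and 41.9%, mean 40.9% ± 3.36, SD, n = 3). The same rule gave 25.3%, 22.8% and 23.1% of all genes in replicates 1, 2 and 3 (mean 23.7% ± 1.40). Replicate 2 gave the fewest in both sets of genes.

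Median ranks of the promoter peaks differed between the roles, but ranks within a role spread widely and the difference was not tested. Taking the highest-scoring promoter peak of each gene, the median rank was 1215 for the 27 members and 2216 for the 3390 genes of the genome with one. By role the median was 823 for Polr2, 1136 for TfII, 1215 for MED and 2273 for Taf genes, so that the Taf genes were near the value of all genes. Ranks ran from 326 to 5372 in 7 Polr2 genes and from 1022 to 1818 in 3 TfII genes. They ran from 214 to 5394 in 11 MED genes and from 1139 to 3838 in 6 Taf genes. Counting every peak, 14 of 29 member promoter peaks (48.3%) were in the top 25% of the IDR list, against 29.2% of all 2716 IDR promoter peaks. The median rank of the 29 peaks in the replicates' own lists was 1223, 1305 and 1582 (mean 1370 ± 188, SD, n = 3), against a mean of 2309 ± 133 for all IDR promoter peaks. Both promoter peaks of TfIIA-L overlap the same replicate entries, as do both of Taf2, and these entries are counted for each peak. A top entry in all 3 replicates lay at 23 of the 29 (79.3%), against 74.5% of all IDR promoter peaks. The authors chose the IDR list from these same replicates, so this agreement is not an independent check.

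Among the polymerase genes, 4 had strong promoter peaks and 3 had weak ones. Polr2B, which encodes the second-largest subunit and part of the active centre, had a peak at chr3R:14125463-14125881 of score 814 (rank 326), ranked 216, 522 and 343 in replicates 1, 2 and 3. Polr2H, a subunit shared by polymerases I, II and III, had a peak at chr3L:21728617-21728997 of score 795 (rank 343), ranked 516, 472 and 189. Polr2F, another shared subunit, had a peak at chr3R:5371592-5371888 of score 712 (rank 441), ranked 436, 549 and 401. Polr2B ranked above Polr2F in every replicate, while Polr2H was above both in replicates 2 and 3 and below both in replicate 1. Polr2J, which forms part of the assembly platform with Polr2C, followed at rank 823 (635, 1086 and 773 in the replicates), below every replicate rank of the other 3.

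Polr2A, Polr2I and Polr2C sat at the lower end. Polr2A, the largest subunit, whose C-terminal repeats are phosphorylated during transcription, had a peak of score 176 (rank 4478), which replicates 1, 2 and 3 ranked 5858, 5310 and 2945. Polr2I, a small subunit with a part in start-site choice in yeast, was at rank 4149 (5938, 5831 and 3136). Polr2C was at rank 5372 (5359, 5221 and 6174). None of these 3 peaks was among the top 5508 entries of all replicates. Within 2 kb of the 3′ end of Polr2C lay the peak of rank 9 in the whole list, ranked 13, 6 and 11 in the replicates. Its summit was 2119 bp from the Polr2C TSS and 108 bp from the nearest TSS of its neighbours CenG1A and mRpS23, so by the promoter rule it does not count for Polr2C.

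The other 6 polymerase genes had no IDR peak. They include 3 of the 5 genes of subunits shared by the 3 polymerases (Polr2E, Polr2K and Polr2L), both genes of the stalk that binds the emerging RNA (Polr2D and Polr2G), and Polr2M, which in mammals encodes a protein associated with the polymerase. Promoter entries were in the pooled list at rank 11107 for Polr2E and 28440 for Polr2D, while the pooled list had none at the promoters of Polr2G, Polr2K, Polr2L and Polr2M. Of the 7 genes of subunits found in polymerase II alone, 5 had a promoter peak, and of the 5 shared ones 2 did. The share of all genes was 24.3%, and these small groups were not tested.

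**Figure D2:**
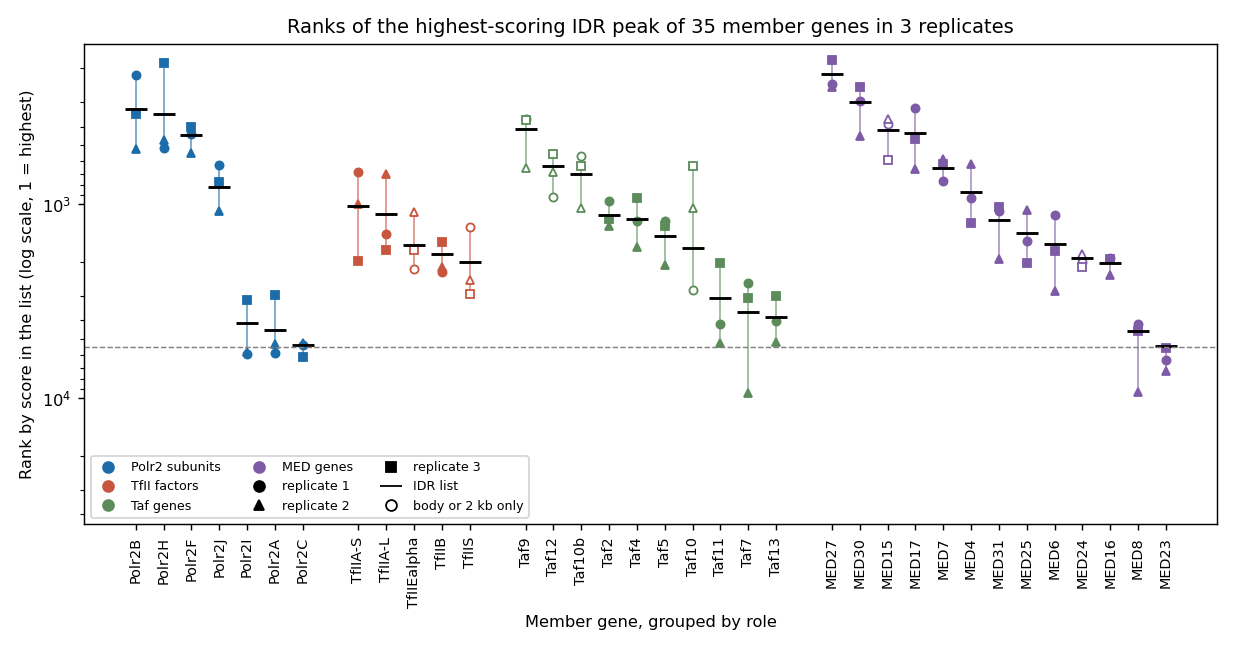
Rank of the highest-scoring IDR peak of each of 35 member genes (log axis, 1 at the top), as black bars for the IDR list and as symbols for the overlapping entry in replicates 1, 2 and 3, joined by a line. Filled symbols are promoter peaks, open ones lie in the body or within 2 kb, and the dashed line is rank 5508. MED27 and Polr2B are near the top in all 3 replicates, while Polr2C, MED8 and MED23 lie around the dashed line.

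Of the general factors, the genes of TFIIA and TFIIB had promoter peaks. TFIIA stabilises binding of the TATA-binding protein to DNA. Its small subunit gene TfIIA-S had a peak at chr3R:23890998-23891241 of score 472 (rank 1022), ranked 685, 999 and 1979 in replicates 1, 2 and 3. TfIIA-L, which encodes its large subunit, had 2 promoter peaks, and the higher-scoring one, at chr3R:27253126-27253349, had a score of 446 (rank 1136), ranked 1425, 705 and 1732. Its summit lay in an intron of TfIIA-L, 208 bp upstream of a second start site and 40 bp from a TSS of pll, a kinase gene of the Toll pathway. TfIIB, whose protein bridges TFIID and the polymerase, had a peak at chr2L:10430882-10431090 of score 336 (rank 1818), ranked 2258, 2122 and 1582. The TfIIB summit lay 369 bp from its own TSS and 51 bp from that of Bug22. TfIIA-S ranked above TfIIA-L in replicate 1 and below it in replicates 2 and 3. The replicate entries of TfIIA-L overlap both of its promoter peaks, so these ranks are not those of the higher-scoring peak alone.

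TfIIEalpha and TfIIS had peaks in the 2 kb flank only. TfIIEalpha encodes a subunit of TFIIE, which recruits TFIIH, and its peak of rank 1628 (2166, 1110 and 1741 in replicates 1, 2 and 3) lay 1537 bp upstream of its TSS and 157 bp from that of CG32085. TfIIS encodes a factor that restarts arrested polymerase, and its peak of rank 1996 (1322, 2470 and 2923) lay downstream of the gene, 3835 bp from the TSS. Pooled promoter entries at these genes ranked 9701 and 9030. TfIIEbeta, TfIIFalpha, TfIIFbeta and TfIIA-S-2 had no IDR peak. The best pooled promoter entries were at rank 6686 for TfIIEbeta and 7505 for TfIIFalpha. At TfIIFbeta no replicate had an entry in the body or within 2 kb, and at TfIIA-S-2 a promoter entry was in the list of 1 replicate.

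TAFs form TFIID around the TATA-binding protein, several of them in pairs joined by histone folds. Taf2, which encodes a subunit that contacts DNA at the start site, had 2 promoter peaks. The higher-scoring one, at chr3L:9888701-9888835, had a score of 446 (rank 1139), ranked 968, 1305 and 1198 in replicates 1, 2 and 3. Taf4, a histone-fold subunit, had a peak at chr3L:16113568-16113812 of score 434 (rank 1196), ranked 1223, 1669 and 935. Taf5, a WD40 subunit shared with the SAGA coactivator in yeast, had a peak at chr2R:10879664-10879886 of score 384 (rank 1469), ranked 1225, 2077 and 1302. Taf2 and Taf4 both ranked above Taf5 in every replicate, while their own order differed between replicates. The replicate entries of Taf2 overlap both of its promoter peaks. The partners Taf11 and Taf13 both had promoter peaks, at rank 3077 (4192, 5228 and 2030 in the replicates) and rank 3838 (4014, 5159 and 2978). Taf7 was at rank 3631, and its replicate ranks of 2579, 9526 and 3063 put it below the top 5508 in replicate 2.

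Another 4 Taf genes had high-scoring peaks that lay outside the gene and within 500 bp of a TSS of another gene. The peak assigned to Taf9 (rank 412, replicates 364, 651 and 371) lay 2674 bp from its TSS and 114 bp from the nearest TSS of its neighbours Ucp4A and CG8142. That of Taf12 (rank 638, replicates 925, 689 and 553) lay 1410 bp downstream of its TSS and 164 bp from a TSS of CG18476. Taf10 and Taf10b are neighbours transcribed in opposite directions from start sites 45 bp apart, and both encode histone-fold TAFs. Their highest-scoring peaks, rank 1693 for Taf10 and rank 703 for Taf10b, overlapped at their ends and lay at TSSs of Snx21 and aph-1, 1795 and 1956 bp from their own TSSs. Replicate 1 ranked the entries at these Taf10 and Taf10b peaks 2789 and 569, while in replicates 2 and 3 a single entry, at rank 1053 and rank 637, overlapped both peaks. Within 500 bp of the start sites of Taf10 and Taf10b the pooled list had only an entry of rank 6610.

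Taf1, Taf3, Taf6, Taf8 and Taf12L had no IDR peak. Taf1, the largest subunit of TFIID, had a pooled promoter entry at rank 25145, Taf6 at 10207 and Taf8 at 6807. Taf3, on chromosome 4, had none in the pooled list and one in 2 of the replicates. Taf12L, a homologue of Taf12, had no entry within 2 kb in the pooled list or in any replicate.

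MED27 and MED30 had the 2 highest-scoring promoter peaks among the 62 genes, and both summits lay nearer a TSS of a neighbour. The MED27 summit was 166 bp from its own TSS and 112 bp from that of elm. The MED30 summit was 209 bp from its own TSS and 65 bp from that of Rev1. MED27 had a peak at chr3R:5654779-5655190 of score 958 (rank 214), ranked 242, 250 and 181 in replicates 1, 2 and 3. MED30 had a peak at chr3L:654066-654442 of score 834 (rank 300), ranked 297, 448 and 250. MED17, a central subunit of the head module, which contacts the polymerase, had a peak at chr3R:18188779-18189164 of score 715 (rank 433), ranked 319, 661 and 463. In every replicate MED27 ranked above MED30 and MED30 above MED17.

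Promoter peaks were also counted by module of Mediator, next to the 24.3% of all protein-coding genes with one. Each module has few genes, and differences between modules were not tested. In the head module, 3 of 7 genes had a promoter peak, MED6 (rank 1616), MED8 (rank 4559) and MED17. In the middle module, 3 of 8 did, MED4 (rank 869), MED7 (rank 652) and MED31 (rank 1215). In the tail, which many DNA-bound regulators contact, MED16 (rank 2022) and MED23 (rank 5394) had promoter peaks. The other tail genes, MED15 and MED24, had peaks in the flank only. MED14, the scaffold that joins the modules, had none, and of 5 further subunits MED25 (rank 1423), MED27 and MED30 had one. MED7 varied least between replicates among the middle genes, with ranks of 768, 586 and 622, against 936, 626 and 1254 for MED4 and 1091, 1924 and 1038 for MED31. MED23 was outside the top 5508 entries in every replicate, with ranks of 6364, 7318 and 5567, and MED8 was outside it in replicate 2 (4159, 9334 and 4547).

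The MED15 peak of rank 418 (386, 365 and 595 in replicates 1, 2 and 3) lay 564 bp upstream of its TSS, just beyond the 500 bp limit, and 249 bp from the TSS of CG4297. The MED24 peak of rank 1895 (2007, 1823 and 2119) lay downstream of the gene, 6675 bp from its TSS. The 12 MED genes without an IDR peak had pooled promoter entries ranked from 10348 (MED26) to 19583 (MED11) or, at MED14, MED18, MED20, MED21 and MED28, none. MED21 had no entry within 2 kb in any list. The nearest IDR summit was 896578 bp from a MED21 TSS, so the absence of IDR peaks covers a wide region around this gene.

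**Figure D3:**
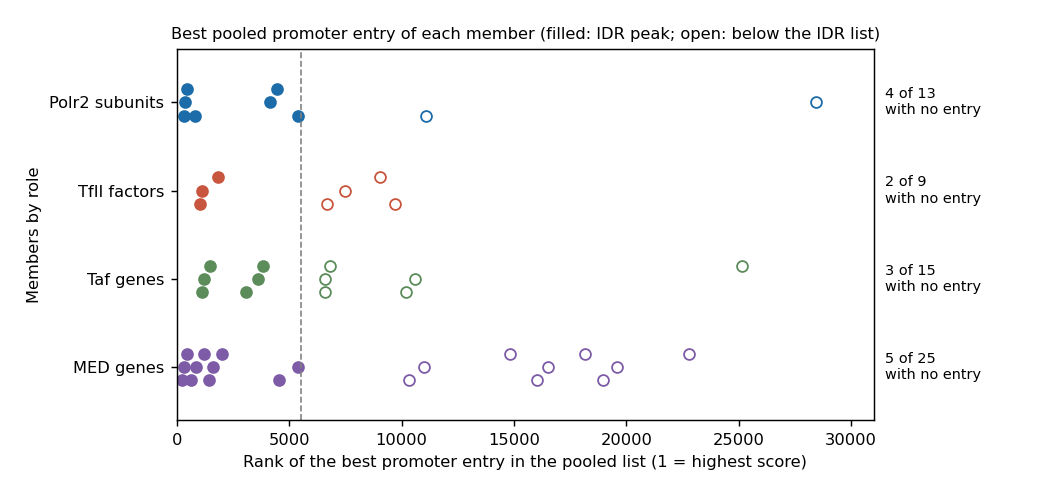
Rank of the best promoter entry of each member in the pooled list, by role. Filled points are IDR peaks, open points lie below the IDR list, the dashed line is rank 5508, and the counts at the right are members with no promoter entry in the pooled list. The lowest members inside are MED23 at 5394 and Polr2C at 5372, and the first outside are Taf10 and Taf10b, which share an entry at 6610.

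The pooled list, which also holds background, had entries at more members than the IDR list. Pooled entries lay at the promoters of 48 of 62 members (77.4%), against 52.7% of all genes. These 48 include the 27 members with an IDR promoter peak, because every IDR peak is also a pooled entry. Members without an IDR peak were not compared with all genes without one. Just below the IDR list came Taf10 and Taf10b (rank 6610), TfIIEbeta (6686) and Taf8 (6807), and just inside it MED23 (5394) and Polr2C (5372), with scores of 150 inside and between 122 and 126 outside. By chromosome arm, 12 of 21 members on 3R had a promoter peak, against 27.1% of all genes there, and 4 of 7 members on 2R, against 22.4%. On 2L it was 5 of 11 (all genes 24.1%) and on 3L 5 of 15 (24.9%). The X had 1 of 6 (22.6%) and chromosome 4 had 0 of 2 members, against 6 of its 80 genes.

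Member summits lay close to the TSS and nearly always upstream of it. The median distance was 102 bp (range 1 to 369) for the 27 members and 131 bp for all genes with a promoter peak. Summits were upstream of the nearest TSS of the gene in 25 of 27 members (92.6%), against 90.4% of all such genes. The exceptions were MED6, with the summit 1 bp downstream of a TSS, and MED23, with the summit 102 bp downstream in a coding exon. In 26 of 27 members (96.3%) the summit lay within 250 bp, against 78.1% of all genes with a promoter peak. Of the 27 summits, 22 lay outside the gene itself.

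**Figure D4:**
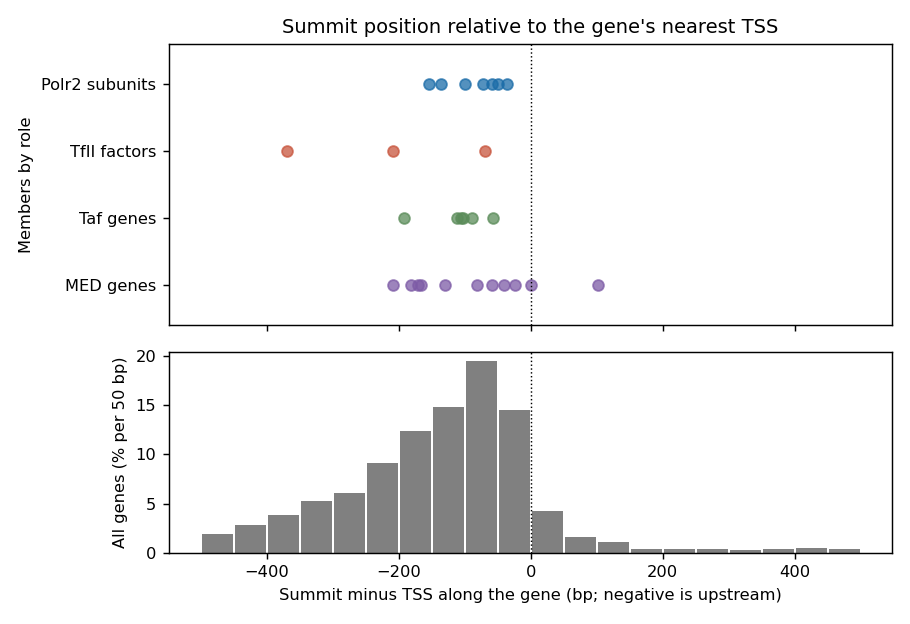
Position of the highest-scoring promoter summit relative to the nearest TSS of the gene, in bp along the gene, for 27 members by role (upper panel, a point each) and for all 3390 genes with a promoter peak (lower panel, percent of genes per 50 bp). Member summits fall between 369 bp upstream (TfIIB) and 102 bp downstream (MED23), with 25 of 27 upstream.

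These promoter peaks were mostly shared with a gene on the other strand. A TSS of another gene on the opposite strand lay within 500 bp of the summit for 23 of 27 members (85.2%), against 57.5% of all genes with a promoter peak. Among the partners were 140up for Polr2B, CG11247 for Polr2H, su(Hw), an insulator protein gene, for Polr2I, CalpB for Taf2, elm for MED27, Rev1 for MED30 and Cap-H2, a condensin subunit gene, for MED7. Of these, the partner's TSS was nearer the summit at Polr2H (27 bp, own TSS 99 bp), Taf2 (27 bp, own TSS 106 bp), MED27 and MED30. The member's TSS was nearer at Polr2B, Polr2I and MED7. The summit lay between the start sites in 19 of the 23 (82.6%), against 86.4% of all genes. The TSS of the member was the nearer of the pair in 14 of the 23 (60.9%), against 49.8% of all genes. It was nearer in 5 of 6 Polr2 genes, 7 of 10 MED genes, 2 of 5 Taf genes and 0 of 2 TfII genes. A peak between start sites cannot be given to either gene from these lists. No opposite-strand TSS lay within 500 bp of the summits at Polr2F, TfIIA-S, Taf4 and MED4.

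The share of members with a promoter peak differed between genes with and without a divergent TSS, and the part of this arrangement was not tested. A TSS of another gene, upstream and on the opposite strand within 1 kb, was present at 44 of 62 members (71.0%), against 36.2% of all genes. Of the 44 members with such a divergent TSS 24 had a promoter peak (54.5%, Wilson 95% interval 40.1 to 68.3), against 44.1% of all genes with one. Of the 18 members without one, 3 had a peak (16.7%, 5.84 to 39.2), against 13.1% of all genes without one. In each stratum the interval of the members included the share of all genes. Had each stratum had the share of all genes, 21.7 members (35.1%) would have had a promoter peak, against the 27 counted. This is a calculation and not a test. The 500 bp window around a TSS can also take in a peak at the start site of a divergent partner. Members were also shorter than other genes, with a median of 1252 bp against 2166 bp, and the part of gene length in the result was not tested.

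**Figure D5:**
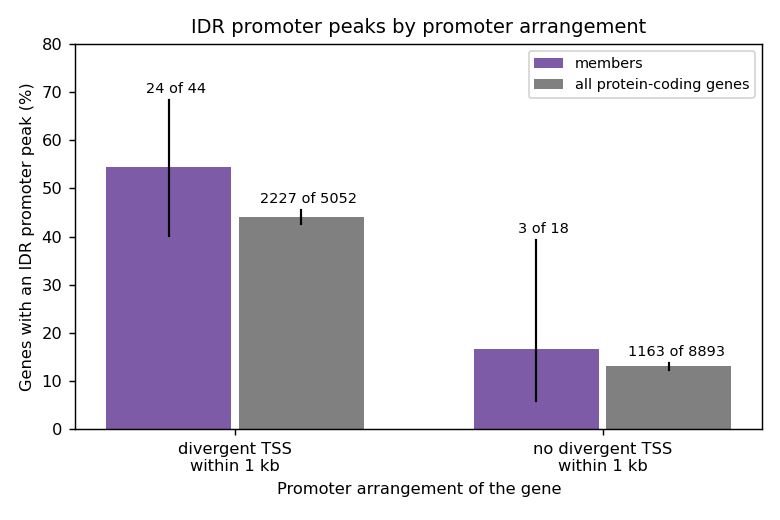
Share of genes with an IDR promoter peak, in percent, for members (purple) and all protein-coding genes (grey), with and without a divergent TSS within 1 kb (bars, with Wilson 95% intervals as lines and counts above). The share is 54.5% of members with a divergent TSS and 16.7% of members without one, next to 44.1% and 13.1% of all genes.

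Few member summits held a Tinman site, and GC content at them was low, as at other IDR summits. Within 50 bp of the summit, TCAAGTG or TTAAGTG on either strand was found at 3 of 29 member promoter peaks (10.3%, Wilson 95% interval 3.58 to 26.4), those of MED27, Taf4 and TfIIA-L printed above. The share was 3.20% at the other 2687 IDR promoter peaks and 5.16% at the 2792 IDR peaks away from promoters. Within 100 bp the site was at the same 10.3% of member peaks, against 6.85% of other promoter peaks and 10.6% of peaks away from promoters. The interval of the members includes all of these shares but that of 3.20%. In windows of 100 bp either side of the most upstream TSS, the site was at 3 of 62 members (4.84%), against 6.36% of all genes. It was in that window at 0 of the 27 members with a promoter peak (interval up to 12.5%). GC content within 100 bp averaged 34.3% ± 7.22 (SD over 29 peaks) at member summits, against 36.8% ± 6.93 at other promoter summits. At IDR peaks away from promoters it was 35.4% ± 6.11. Within 50 bp it was 35.3% at member summits, 37.1% at other promoter summits and 33.7% away from promoters.

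The elements of housekeeping promoters examined were the DRE core ATCGATA and the core of motif 1, GTCACAC, which the zinc-finger protein M1BP binds. Within 100 bp of the summit the DRE core was at 5 of 29 member peaks (17.2%), against 18.3% of other promoter peaks, and the motif 1 core at 1 of 29 (3.45%), against 6.81%. Around the most upstream TSS both were more frequent among members than among all genes. The DRE core was within 100 bp of it in 16 of 62 members (25.8%, Wilson 95% interval 16.6 to 37.9) and in 15.1% of all genes, and the motif 1 core in 17 of 62 (27.4%, 17.9 to 39.6) and in 7.97% of all genes. The DRE core was there in 6 of 27 members with a promoter peak (22.2%, against 24.0% of all genes with one) and in 10 of 35 members without (28.6%, against 12.2% of all genes without). The motif 1 core was there in 6 of 27 with a peak (22.2%, against 11.0%) and in 11 of 35 without (31.4%, against 6.99%). Members without a peak held both cores at least as often as members with one. The E-box CACGTG was within 100 bp of 0 of the 29 summits, where the interval reaches 11.7%, against 2.68% of other promoter peaks. The GAGA repeat GAGAG was at 5 of 29 member peaks, against 538 of the 2687 other promoter peaks, and the TATA box TATAAA at 41.4%, against 34.3%. Around the most upstream TSS the GAGA repeat was at 6 of 62 members (9.68%, Wilson 95% interval 4.51 to 19.5), against 22.5% of all genes. In the same window the TATA box was at 37.1% of members (26.2 to 49.5), against 29.2% of all genes, and the E-box at 0 of 62 members (interval up to 5.83%), against 2.88% of all genes. These are letter matches and say nothing of which factor was bound.

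In 6 other lists of transcription genes the share with a promoter peak ran between 0% and 73.3%. Among 12 further preinitiation genes, 6 had one, led by Ssl1, a TFIIH subunit gene, at rank 7. The rest were mrn, Xpd, Cdk7 and CycH of TFIIH and e(y)2, a small coactivator subunit gene, while Tbp, the TATA-binding protein gene, had a peak of rank 5218 in the body or flank only. This list also holds TFAM, a mitochondrial factor, which had none. Of 4 genes of the Mediator kinase module, skd (rank 984) and Cdk8 (rank 4371) had a promoter peak, and kto and CycC had no IDR peak. Genes of elongation and pausing factors had promoter peaks in 11 of 15 cases (73.3%, Wilson 95% interval 48.0 to 89.1), with Nelf-E at rank 504 and TH1 at rank 888, both genes of the negative elongation factor. At Cdk9, CycT and Hexim, which encode parts or inhibitors of the kinase that releases paused polymerase, no IDR peak was found.

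Genes of coactivators that acetylate or modify histones, mostly of SAGA, had promoter peaks in 8 of 14 cases (57.1%), with Gcn5, the acetyltransferase of SAGA, at rank 773. Subunit genes of RNA polymerases I and III had them in 7 of 17 (41.2%, Wilson 95% interval 21.6 to 64.0), with Polr3E highest at rank 890, and their median rank was 4169, against 1215 for the 62 genes described here. Of 4 testis-specific homologues of TAF genes none had a promoter peak (0 of 4, interval up to 49.0%), and mia had a peak of rank 2164 in the body or flank. The intervals of these lists overlap that of the members, and differences between them were not tested.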

How the data were processed

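Per the labels, chromatin of whole tin-GFP embryos was sonicated to 200 to 800 bp. The authors deposited narrowPeak lists on dm6 for 3 replicates, the pooled data and the IDR analysis. The score is the value the authors' peak caller wrote in the signal column before the lists were deposited, as the file format has it. The aligner, peak caller, score scale and IDR cutoff were not stated in the labels or files used. Scores were used only to rank entries within a list. Lists on dm3 were not used. Arm lengths of the RefSeq Release 6 sequence and Ensembl release 115 genes (BDGP 6.54) fit the peaks' coordinates. Summits were assigned with Python 3.11.15, numpy 2.4.6 and pandas 2.3.3, and intervals came from scipy 1.17.1. The overlapping entry with the best rank stands for a replicate, so neighbouring IDR peaks can share one. The assignment was checked on simulated data.

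The members, gene lists and motifs were chosen with earlier results of these data known. Of 20 names in the elongation list 15 matched the annotation, of 13 preinitiation names 12 and of 5 testis names 4, and names without a match were left out. Some names were other spellings of a listed gene, such as Nelf-B beside NELF-B, so a name without a match need not be a missing gene. Mediator modules, chromosome arms, promoter arrangement and the TSS windows for motifs were added after the peaks had been seen. Replicate values are given for the 3 highest promoter peaks of each role, flank-only peaks and some others chosen afterwards. Replicates are separate biological samples, per the labels.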

Additional observations from a re-analysis of the deposited data

How the results depend on the processing

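Of 46 alternatives, 41 left a count within 1.5 times, a median within its spread or a share within its interval. With all entries of the pooled list in place of IDR peaks, 48 members had a promoter entry (52.7% of all genes) and 55 had one by either rule (74.8% of all genes). Required to overlap by 50% of both entries, top entries of all 3 replicates lay at 12 of 29 member promoter peaks, against 23 with 1 bp, and at 49.9% of all IDR promoter peaks. Within 50 bp of the summit the motif 1 core was at 0 of 29 member peaks and the TATA box at 24.1%. The promoter count was 26 with a TSS window of 250 bp (19.9% of all genes) and 28 with 1000 bp (27.6%). It was 25 with the most upstream TSS alone (22.1% of all genes) and 19 in the higher-scoring 50% of the IDR list (14.4%). The IDR list was not remade without a replicate, so leaving a replicate out only changed a filter on the IDR peaks. IDR peaks with a top entry in both other replicates gave a promoter count of 22 to 23 (19.1% to 20.2% of all genes). The count by either rule was then 30 to 32 (33.8% to 34.8% of all genes). The replicate left out still shaped the IDR list, so these counts do not show the result without it. The mean count of top entries over the other replicates was 24.5 to 26.5, for which no share of all genes was computed. No paired analysis was possible because the design has 1 group. The lists hold no read counts, so depth could not be weighed.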
